A study of Mus musculus with 1376 samples.

Results

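The genes described here are 10 activators and receptors of Wnt signalling in the mouse lung: the ligands Wnt2, Wnt4, Wnt5a and Wnt11, the R-spondins Rspo1 and Rspo3, the receptors Lgr4, Lgr5 and Lgr6, and the feedback gene Axin2. They were taken by name from a table of 46517 genes, and all 10 were found. The table holds 1376 single cells sorted into wells from the lungs of 3 mice of the ACTA2GFP:CSPG4dsRED strain, a double reporter whose name gives the promoters Acta2 (smooth muscle actin) and Cspg4 (the NG2 proteoglycan of mural cells). No treatment is given, so the comparisons are between cell classes. Of the cells, 47.5% came from male mouse 1 (on a pair of plates), 25.6% from male mouse 2 and 27% from female mouse 1 (each on 1 plate), so that animal and sex cannot be told apart, nor plate from animal except within male 1. Where 3 values stand in a row, they are those of male 1, male 2 and the female. Labels and series text differ on the animals: the former have 8 to 30 weeks of age and both sexes, the latter 8 to 21 weeks and males. The extraction text names heart although each cell is labelled lung, and the sources used here do not give the sorting gate.

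Wnt ligands are secreted, lipid-bearing proteins that bind Frizzled receptors on nearby cells. In the beta-catenin branch this stops the destruction of beta-catenin, which then acts with TCF and LEF factors on target genes such as Axin2, itself part of the destruction complex. R-spondins bind Lgr receptors and thereby spare Frizzled receptors from the ubiquitin ligases Znrf3 and Rnf43. In the lung, mesenchymal cells are a known source of Wnt ligands for the epithelium.

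Cells were clustered on genes that included none of the members and none of the 64 other Wnt genes listed below, and clusters were named from marker genes. Secreted Wnt antagonists were not on these lists. Of 13 clusters, 6 classes had at least 10 cells in each mouse: vascular smooth muscle cell (SMC)-like cells (38% of all cells), alveolar fibroblast-like cells (11.6%), 110 alveolar myofibroblast-like cells, 91 pericyte-like cells, 79 airway SMC-like cells and 52 adventitial fibroblast-like cells. The summed level of each class's own marker list was between 4508 and 27194 CPM (counts scaled to a common depth) in every mouse, while the 10 endothelial markers together stayed at or under 159.1 CPM and the 9 macrophage markers at or under 89.4 CPM. The airway SMC list did not separate airway SMC-like (18665 to 27194 CPM) from vascular SMC-like cells (17819 to 26941), and the vascular list stood at 11841 to 16778 CPM in airway SMC-like cells. Both lists hold Myh11, Acta2 and Tagln. Without these 3 genes the airway list had 8793 to 12419 CPM in airway SMC-like and 5879 to 7978 in vascular SMC-like cells. In alveolar myofibroblast-like cells it had 6899 to 7894 CPM, within the vascular SMC-like range. The vascular list then had 1969 to 2227 CPM in airway SMC-like, 2942 to 4337 in vascular SMC-like and 2587 to 6546 in pericyte-like cells, so that the last 2 classes overlapped on it. The alveolar myofibroblast list had 4508 to 7680 CPM in its own class and 4074 to 4383 in airway SMC-like cells. Among lists of other cell types, the mesothelial list reached 173.2 to 449.3 CPM in alveolar fibroblast-like cells and the cardiomyocyte list 74.9 to 750.6 CPM in airway SMC-like cells. Their part in the results for those classes was not tested. The other cells were 69 endothelial-like cells (66 of them from the female), 62 macrophage-like cells (54 from male 1) and 16.8% of all cells in clusters with no name. The median cell held 230688 counts, the shallowest 50835 and the deepest 1074103. Levels are CPM of the counts summed over the cells of a class in 1 mouse, with edgeR's TMM scaling; in such sums fewer cells with a gene and less of its RNA per cell cannot be told apart, and the error is the SD over n = 3 mice.

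The members lie on separate loci (GRCm38, GENCODE M21 genes). Wnt2 is on chromosome 6 at 17988940 to 18030585 (minus strand), Wnt4 on chromosome 4 at 137277489 to 137299726 (plus), Wnt5a on chromosome 14 at 28504750 to 28527448 (plus) and Wnt11 on chromosome 7 at 98835112 to 98855195 (plus). Lgr4 is on chromosome 2 at 109917647 to 110014257 (plus), Lgr5 on chromosome 10 at 115450311 to 115587780 (minus) and Lgr6 on chromosome 1 at 134983301 to 135105276 (minus). Rspo1 is on chromosome 4 at 124986430 to 125009099 (plus), Rspo3 on chromosome 10 at 29452416 to 29535867 (minus) and Axin2 on chromosome 11 at 108920349 to 108950783 (plus). Annotated genes overlap several of them: Gm2670 overlaps Wnt5a and held 1041 counts beside 44885 of Wnt5a, and Gm11670 overlaps Axin2 and held 882 beside 9717. The sources used here do not say whether counting used strand, and without it reads from these pairs cannot be told apart.

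Axin2 is a standard readout of TCF and LEF activity, so the promoters were read for the core of the TCF/LEF motif, CTTTGA on either strand. RefSeq (GRCm38.p6) gave 8 promoters for 7 of the members. The core was present in the 250 bases before the start of 1 of the 8, that of the more upstream Wnt11 start. It was present in 13.8% of the 32851 mouse promoters of that length. The Wnt11 promoter (chr7:98834862-98835111, plus strand) is shown as the member promoter with a match, printed in capitals and ending 44 bases before the start, and the Axin2 promoter (chr11:108920099-108920348, plus strand) as that of the target gene, whose window holds no match. A match is a description of the letters only.
Wnt11: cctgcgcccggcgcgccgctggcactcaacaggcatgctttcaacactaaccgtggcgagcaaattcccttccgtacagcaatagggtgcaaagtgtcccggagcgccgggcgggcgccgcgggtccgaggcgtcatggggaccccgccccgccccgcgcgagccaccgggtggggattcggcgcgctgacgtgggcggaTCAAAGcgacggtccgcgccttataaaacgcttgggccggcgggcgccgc
Axin2: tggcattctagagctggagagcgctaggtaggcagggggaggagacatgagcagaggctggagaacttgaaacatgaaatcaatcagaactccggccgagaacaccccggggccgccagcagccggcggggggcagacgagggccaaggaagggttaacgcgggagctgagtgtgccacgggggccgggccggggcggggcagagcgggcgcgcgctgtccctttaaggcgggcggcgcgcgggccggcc

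The most abundant ligand was Wnt5a, which signals mainly outside the beta-catenin branch. Its level in alveolar myofibroblast-like cells was 685.6, 969.2 and 900.4 CPM, a mean of 851.7 ± 147.9 (SD, n = 3). The lowest of these values lay above every value of the other tested classes. In airway SMC-like cells the values were 236.4, 316.98 and 161.6 CPM, and in pericyte-like cells 111.2, 412.1 and 26.7 CPM. In the pericyte-like class 5 of 91 cells gave 87.2% of the Wnt5a counts, and the median among its cells with a count was 10.4 CPM. Alveolar fibroblast-like cells had 118.7, 53.7 and 228.6 CPM and adventitial fibroblast-like cells 328.1, 13.9 and 44.6 CPM. These 4 classes overlapped, and in the adventitial class 57% of the counts came from 1 cell. Vascular SMC-like cells stood under all of them at 3.25, 2.46 and 2.36 CPM.

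Wnt11, also a ligand of the branch without beta-catenin, followed the same class. Alveolar myofibroblast-like cells had 59.1, 29.8 and 109.2 CPM, against at most 10.7 CPM in any mouse of the other classes. Only 31.8% of the myofibroblast-like cells had a Wnt11 count, and the median among those was 45.5 CPM. In airway SMC-like cells the mean was 7.47 ± 2.9 CPM (SD, n = 3), and 71.8% of those counts came from a single cell.

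Wnt2, a ligand known from the embryonic lung, was high in 1 of the 6 classes, alveolar fibroblast-like cells. They held 76.2, 106.8 and 71.4 CPM. The highest value in any mouse of the other 5 classes was 0.555 CPM. Outside the classes, an unnamed cluster of 22 cells that scored highest for adventitial fibroblast markers had Wnt2 at 0, 0.914 and 114.6 CPM. Within the alveolar fibroblast-like class, 57 cells (35.8%) had a Wnt2 count, with a median of 155.1 CPM among them, and the share was 32.7% when every cell was thinned to 50000 counts.

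Wnt4 was lower and more spread. Pericyte-like cells had 27.6, 33.1 and 32.8 CPM, adventitial fibroblast-like cells 15.1, 1.39 and 40.8, and alveolar fibroblast-like cells 15.1, 2.99 and 14.1. The adventitial range spanned both others, and every pericyte-like value lay above those of the alveolar fibroblast-like cells. The 5 highest cells gave 72.5% of the pericyte-like and 91.2% of the adventitial counts, and a single cell gave 91.8% of those in airway SMC-like cells. On the plates of male 1 the pericyte-like level was 93.5 CPM (6 cells) and 5.68 CPM (11 cells). Means in the other 3 classes were 2.25 ± 3.31 CPM in airway SMC-like, 0.565 ± 0.472 in alveolar myofibroblast-like and 0.544 ± 0.253 in vascular SMC-like cells (SD, n = 3).

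**Figure D1:**
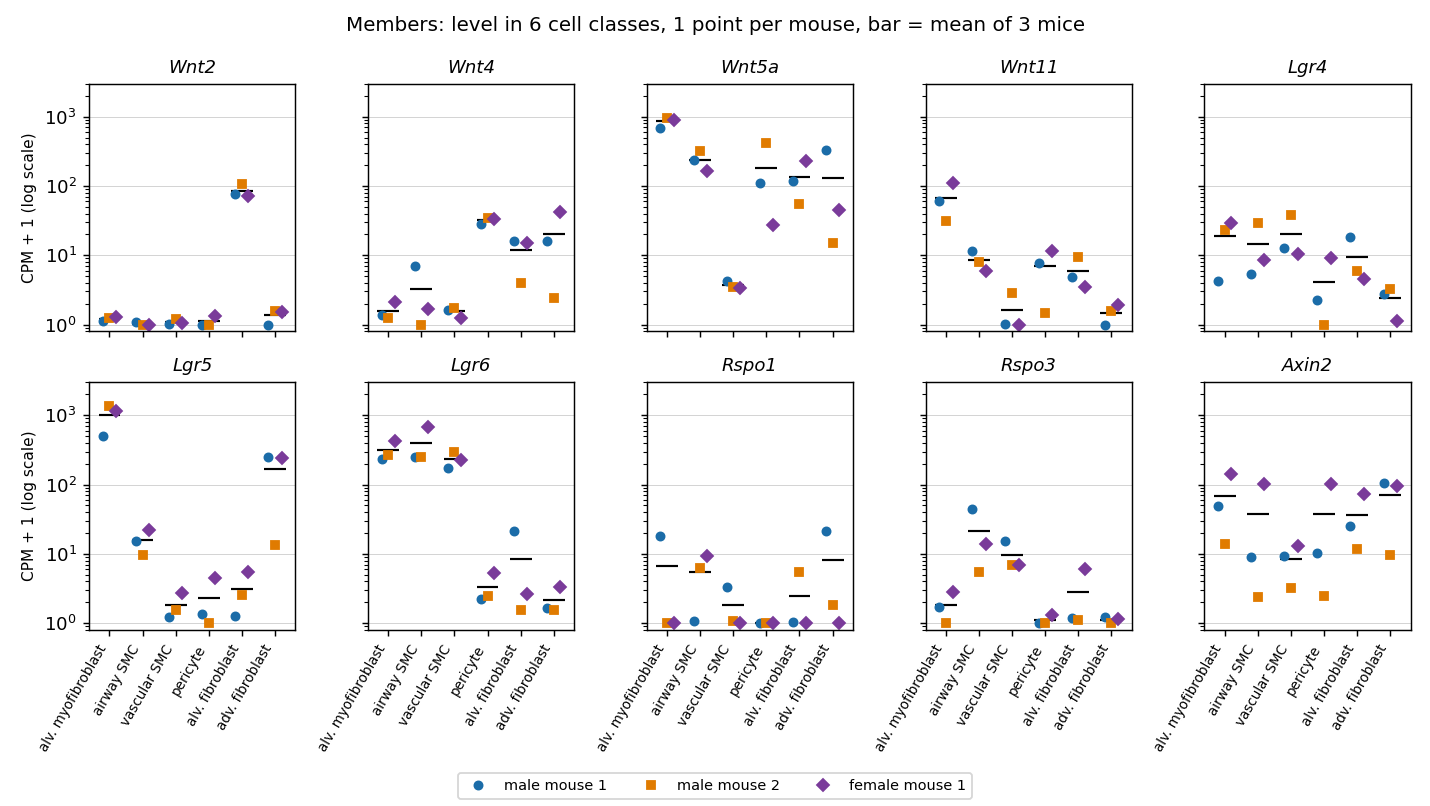
Level of each of the 10 members (CPM + 1, log scale) in the 6 cell classes, with 1 point for each of the 3 mice and a bar for their mean. Wnt2 stands at 71.4 to 106.8 CPM in alveolar fibroblast-like cells and under 1 CPM in the other classes shown. Lgr5 is highest in alveolar myofibroblast-like cells, and the Axin2 points of the mice lie far apart within each class.

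Of the R-spondins, Rspo3 was found in the smooth muscle classes. Airway SMC-like cells had 44.1, 4.54 and 13 CPM and vascular SMC-like cells 14.5, 5.8 and 5.92 CPM. The ranges of these 2 classes overlapped, and the vascular values lay above all values of the other 4 classes, which reached at most 5.07 CPM. Few cells carried it: 45 vascular SMC-like cells (8.6%) and 10 of 79 airway SMC-like cells (12.7%) had a count, with medians of 48.6 and 63.1 CPM among those cells. In airway SMC-like cells 71% of the counts came from 1 cell. Rspo1 was rarer still, with a count in 23 of 1376 cells (1.67%) and 1071 counts in all. In each of the 5 classes with a Rspo1 count, 1 cell gave at least 78.9% of them, so its class means describe single cells. No Rspo1 count was found in 91 pericyte-like cells.

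Lgr5, an R-spondin receptor known as a stem cell marker in gut and hair follicle, had the highest mean CPM of any member, not corrected for length. Alveolar myofibroblast-like cells had 500.9, 1351 and 1153 CPM, a mean of 1002 ± 444.8 (SD, n = 3). Adventitial fibroblast-like cells came next with 248.8, 12.5 and 242.5 CPM, and 69.3% of their counts came from 5 of 52 cells. Airway SMC-like cells had 14.3, 8.73 and 20.8 CPM, and a single cell gave 50% of these counts. On the 2 plates of male 1 the airway SMC-like level was 29.9 and 0.982 CPM. All values of the remaining 3 classes were at most 4.51 CPM. In the myofibroblast-like class the cells with a Lgr5 count numbered 83 of 110 (75.5%, or 63.6% after thinning), with a median of 941 CPM.

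Shares of cells need the level beside them. Lgr5 was counted in 24 of 69 endothelial-like cells (34.8%, exact 95% interval 23.7 to 47.2%; 21.7% after thinning), yet their level was 2.38 CPM. In alveolar fibroblast-like cells the share was 35.8% (5.03% after thinning) at a median of 3.68 CPM among the cells with a count. The median depth was 152140 counts in endothelial-like and 307859 in alveolar fibroblast-like cells. At mean levels of 2.38 and 2.1 CPM these shares are not read as expression. In the female 70.7% of the alveolar fibroblast-like cells had a Lgr5 count, against 10.9% in male 1.

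Lgr6, a close relative of Lgr5, was shared by 3 classes. Airway SMC-like cells had 247.4, 246.5 and 687.4 CPM, alveolar myofibroblast-like cells 231.6, 269.97 and 428.9 CPM, and vascular SMC-like cells 171.3, 291.8 and 225.4 CPM. The 3 ranges overlapped. All values of the other tested classes lay below them. These were 0.573 to 20.2 CPM in alveolar fibroblast-like cells, 1.25 to 4.23 in pericyte-like cells and 0.555 to 2.35 in adventitial fibroblast-like cells. The value of 20.2 CPM came from male 1, and 90.5% of the class's counts were from 1 cell. A Lgr6 count was found in 64.8% of the vascular SMC-like cells, 59 of 79 airway SMC-like cells (74.7%) and 77 of 110 myofibroblast-like cells (70%).

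Lgr4, the third receptor of this family, was low in all 6 classes. Its mean ran from 1.38 ± 1.1 CPM in adventitial fibroblast-like cells to 19.4 ± 15.3 CPM in vascular SMC-like cells (SD, n = 3). The ranges of all neighbouring classes overlapped over the 3 mice. Endothelial-like cells held 1 count of Lgr4 in 69 cells.

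Axin2, a negative regulator that beta-catenin itself switches on, was detected in every class. Adventitial fibroblast-like cells had 104.9, 8.6 and 94.2 CPM, alveolar myofibroblast-like cells 48, 12.7 and 140.96, and airway SMC-like cells 7.93, 1.4 and 102.2. Pericyte-like cells had 9.13, 1.46 and 99.8 CPM, alveolar fibroblast-like cells 24.1, 10.7 and 71.6, and vascular SMC-like cells 8.31, 2.25 and 11.9. Male 2 was the lowest in all 6 classes and the female the highest in 5 of them. Over the mice, the 5 highest cells of a class gave from 52% (alveolar fibroblast-like) to 92.2% (pericyte-like) of its Axin2 counts. Within male 1 the 2 plates also lay apart, with 172.2 and 23 CPM in adventitial fibroblast-like and 101.3 and 4.68 CPM in alveolar myofibroblast-like cells.

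Per kilobase of exon, which allows genes to be compared, the members of highest level in alveolar myofibroblast-like cells were Wnt5a at 108.9 ± 18.9 and Lgr5 at 97.6 ± 43.3 CPM per kb, followed by Lgr6 at 45.3 ± 15.3 and Wnt11 at 16 ± 9.71 (SD, n = 3). In alveolar fibroblast-like cells Wnt2 led with 37.6 ± 8.52 CPM per kb, ahead of Wnt5a at 17.1 ± 11.3. In airway SMC-like cells Lgr6 had 57.5 ± 37.1 and Wnt5a 30.5 ± 9.94 CPM per kb. In vascular SMC-like cells Lgr6 had 33.5 ± 8.81 CPM per kb and every other member at most 3.3.

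The classes were then compared in 1 model of the summed counts of all 6 classes with the mouse as a block, over 15988 genes, by edgeR's quasi-likelihood test with Benjamini-Hochberg adjustment. All 10 members passed the filter on low counts. The members and the other Wnt lists were chosen with earlier results of these data known. Their shares of calls, here and in the pairs below, therefore describe these genes and are no evidence about Wnt genes as a set. A test for any difference among the classes called 2007 genes (12.6% of those tested) and 7 of the 10 members at adjusted p under 0.05. These were Lgr5 (adjusted p = 1.19e-05), Wnt2 (3.40e-05), Lgr6 (0.000157), Wnt5a (0.00491), Rspo3 (0.013), Wnt4 (0.0325) and Wnt11 (0.0463). Axin2 (0.146), Rspo1 (0.363) and Lgr4 (0.535) did not pass. Without male 1 or without the female 3 members passed, and without male 2 there were 5. In these fits 3.58, 5.03 and 5.44% of all genes were called. Lgr5, Wnt2 and Lgr6 passed with any 1 mouse left out.

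The first pair set the smooth muscle of the airway against that of the vessels. Wnt5a and Lgr5 were higher in airway SMC-like cells, which makes 2 of 10 members in a comparison that called 0.913% of the genes as higher and 0.863% as lower (1.78% in all). The median log2 fold change was 1.11 over the members and -0.25 over all genes. Wnt5a had mean levels of 238.3 against 2.69 CPM and a log2 fold change of 6.45 ± 1.19 (SE; adjusted p = 0.00973), and Lgr5 14.6 against 0.838 CPM and 4.47 ± 1.03 (adjusted p = 0.0374). Both were higher in all 3 mice. Lgr6 did not pass (0.54 ± 0.88, adjusted p = 0.988) nor did Rspo3 (0.61 ± 1.43, adjusted p = 1). Wnt2, Wnt4, Wnt11, Lgr4, Rspo1 and Axin2 did not pass either, with adjusted p from 0.406 to 1. The Lgr5 call was lost without the block (adjusted p = 0.116) and without any 1 mouse (0.26 without male 1, 0.0878 without male 2, 0.339 without the female). The Wnt5a call was kept without male 2 (0.0299) and lost without male 1 (0.121) or the female (0.104).

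The second pair set pericytes, the mural cells of capillaries, against vascular SMC. Wnt5a was higher and Lgr6 lower in pericyte-like cells, 2 of 10 members where 3.07% of the genes were called, 1.43% higher and 1.64% lower. Over the members the median log2 fold change was 0.71, against -0.36 over all genes. For Wnt5a the means were 183.3 against 2.69 CPM and the log2 fold change 6.01 ± 1.18 (SE; adjusted p = 0.0108). For Lgr6 they were 2.31 against 229.5 CPM and -6.83 ± 1.15 (adjusted p = 0.00478). Each had the same direction in all 3 mice. Rspo3 stood at 0.108 against 8.74 CPM (adjusted p = 0.0588) and Wnt4 at 31.2 against 0.544 CPM (adjusted p = 0.07), short of the threshold. Adjusted p was 0.354 to 0.874 for Wnt2, Wnt11, Lgr4, Lgr5, Rspo1 and Axin2. Lgr6 was called without male 1 (0.00904) and without the female (0.0408) but not without male 2 (0.0722), and Wnt5a was not called without male 1 (0.121), male 2 (0.081) or the female (0.0509).

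In the third pair, alveolar myofibroblast-like against airway SMC-like cells, Lgr5 alone of the 10 members passed, where 0.988% of the genes were called, 0.494% as higher and 0.494% as lower. The median log2 fold change was 1.15 over the members and 0.08 over all genes. For Lgr5 the means were 1002 against 14.6 CPM, with a log2 fold change of 6.21 ± 1.09 (SE; adjusted p = 0.0122), higher in all 3 mice. Wnt5a (1.91 ± 0.97, adjusted p = 0.475), Wnt11 (3.10 ± 1.64, 0.501) and Axin2 (1.75 ± 0.86, 0.465) were above in all 3 mice without passing. Lgr6 did not pass (-0.24 ± 0.87, adjusted p = 0.97), and Rspo3 had 0.845 against 20.5 CPM (adjusted p = 0.181). Wnt2, Wnt4, Lgr4 and Rspo1 had adjusted p from 0.563 to 0.954. The Lgr5 call was lost without male 1 (0.0878), male 2 (0.0862) or the female (0.161), and with cells of at least 2000 genes and 100000 counts only (0.113).

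The fourth pair, alveolar myofibroblast-like against alveolar fibroblast-like cells, called 2.17% of the genes, 0.776% higher and 1.39% lower, and 3 of 10 members. The members' median log2 fold change was 0.70 and that of all genes -0.11. Lgr5 was higher with 1002 against 2.1 CPM and a log2 fold change of 9.39 ± 1.24 (SE; adjusted p = 0.000582), and so was Lgr6 with 310.2 against 7.45 CPM and 5.45 ± 1.09 (adjusted p = 0.0152). Wnt2 was lower with 0.217 against 84.8 CPM and -8.71 ± 1.53 (adjusted p = 0.00612), a value that rests on 6 Wnt2 counts in the myofibroblast-like cells. All 3 had the same direction in all 3 mice. Wnt5a (2.58 ± 1.0, adjusted p = 0.275) and Wnt11 (3.92 ± 1.72, 0.368) were above in all 3 mice and Wnt4 (-4.11 ± 1.49, 0.229) below in all 3, without passing, and Lgr4, Rspo1, Rspo3 and Axin2 had adjusted p from 0.938 to 0.988. The Lgr5 call was kept without male 1 (0.0155), male 2 (0.00919) and the female (0.0321). The Lgr6 call was kept without male 1 (0.00407) and lost without male 2 (0.158) or the female (0.212), and the Wnt2 call was lost without male 1 (0.138), male 2 (0.104) or the female (0.146).

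**Figure D2:**
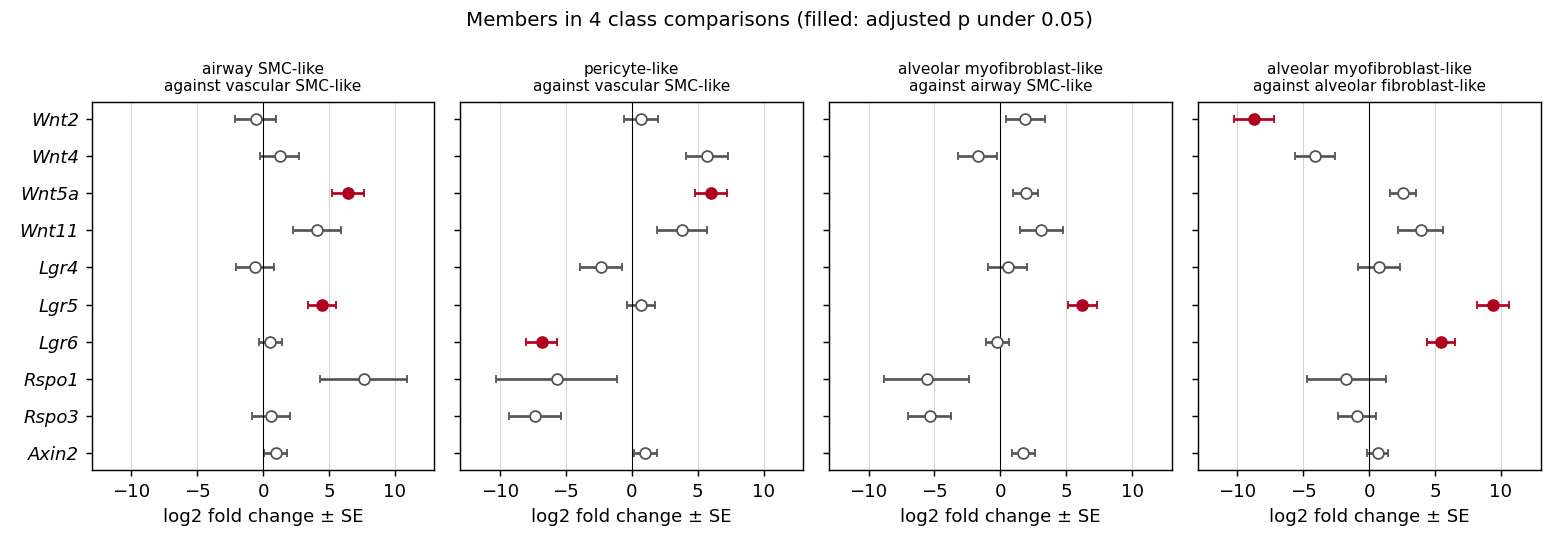
Log2 fold changes of the 10 members with SE in the 4 class comparisons, from 1 fit over 6 classes and 3 mice; filled points passed adjusted p under 0.05. Lgr5 has the largest called change, 9.39 in alveolar myofibroblast-like against alveolar fibroblast-like cells.

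Within the vascular SMC-like class the members differed between its 2 clusters, which are described with no test. Cluster 0 (26.6% of all cells) is led by P2rx1 and Stac and cluster 2 (11.4%) by Sfrp2 and Efhd1. Lgr6 was 135.6, 152.1 and 130.6 CPM in cluster 0 and 329.4, 413.7 and 397.3 CPM in cluster 2. The clusters did not overlap, and 55.7% of the cells of cluster 0 against 86% of cluster 2 had a Lgr6 count at like median depths of 218840.5 and 215010 counts. Rspo3 was 11.3, 2.08 and 1.66 CPM in cluster 0 and 28.5, 9.24 and 13.8 CPM in cluster 2, higher in cluster 2 in each mouse. It was counted in 6.83% of the cells of cluster 0 and 12.7% of cluster 2, there in 2 of 20 female cells. Axin2 went the other way, at 11.4, 3.46 and 17.8 CPM in cluster 0 and 0.832, 0.743 and 0.449 CPM in cluster 2. Few cells carried Axin2 in either cluster (8.2 and 5.1%), and 5 cells gave 74% of its counts in the class.

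The pericyte-like class also joined 2 clusters, of unequal make-up between mice. Cluster 10 (48 cells, led by Col8a1 and Adora1) had 12, 3 and 33 cells and cluster 11 (43 cells, led by Pdzd2 and Spp1) had 5, 7 and 31. Wnt4 was 0.819, 4.42 and 19.6 CPM in cluster 10 and 93.2, 57.3 and 50 CPM in cluster 11, with no overlap. Wnt5a was 0.819, 1.47 and 27.1 CPM in cluster 10 and 381.5, 745.4 and 23.9 CPM in cluster 11, so the males and the female differed in this contrast. In male 1 the Wnt5a counts of cluster 11 came from 1 of 5 cells. Axin2 reached 146.4 CPM in cluster 10 of the female against at most 28.4 CPM in the other pericyte-like samples.

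**Figure D3:**
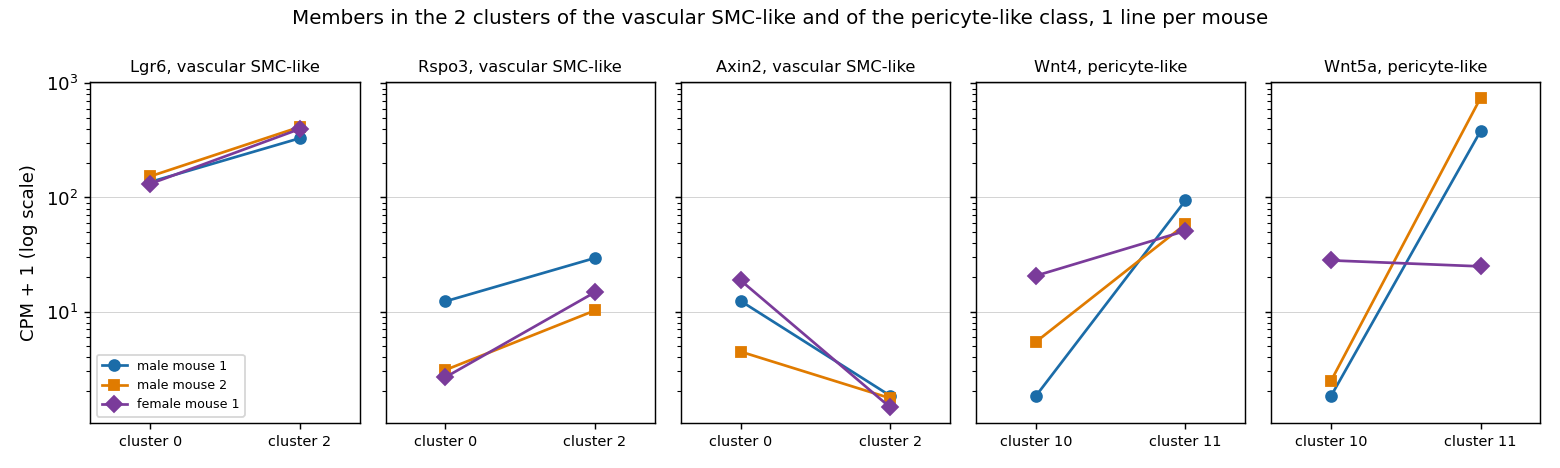
Level (CPM + 1, log scale) of Lgr6, Rspo3 and Axin2 in clusters 0 and 2 of the vascular SMC-like class and of Wnt4 and Wnt5a in clusters 10 and 11 of the pericyte-like class, 1 line per mouse. Lgr6, Rspo3 and Wnt4 are higher in the second cluster in each of the 3 mice and Axin2 is lower; Wnt5a is higher in the second cluster in both males and 27.1 against 23.9 CPM in the female.

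Single cells were read for whether members occurred together, with each cell thinned to 50000 counts. Among 110 alveolar myofibroblast-like cells, 42 had both Lgr5 and Lgr6, 28 only Lgr5, 21 only Lgr6 and 19 neither. Lgr6 was found in 60% of the Lgr5-positive cells and in 52.5% of the rest. The difference had one sign in the males (72.7 against 47.1% in male 1, 60.6 against 50% in male 2) and the other in the female (53.8 against 60%). Wnt5a was found in 85.7% of the Lgr5-positive and 70% of the other myofibroblast-like cells, and the share was higher with Lgr5 in each of the 3 mice. In vascular SMC-like cells Rspo3 was found in 8% of the Lgr6-positive and 6.05% of the other cells.

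Cells outside the tested classes added a few values. A cluster of 22 cells with no name, led by Scara5 and Kcna1, had Wnt5a at 393.5 CPM, Wnt2 at 87.1 and Rspo1 at 48.3, the highest Rspo1 level of the 13 clusters, with a count in 5 of 22 cells. Its marker score was highest for adventitial fibroblasts, at 1.968 beside 1.704 in the named adventitial cluster. It got no name because its top 10 genes held more markers of another class than of this one. Its levels of Wnt5a (518.2 CPM) and Wnt2 (114.6) were highest in the female and that of Rspo1 (250.4) in male 2. Another of 82 cells, 79 of them from male 1, had Lgr6 at 173.6 and Lgr4 at 46.6 CPM. One with 9.23% of all cells, led by Osr2 and Chrdl1, had Wnt5a at 58.4, Axin2 at 36 and Rspo3 at 30.7 CPM. Endothelial-like cells held Axin2 at 28.9 CPM and Wnt5a, Lgr5 and Lgr6 at 1.77 to 2.62 CPM. Among macrophage-like cells the 54 of male 1 had Wnt5a at 1.09, Lgr5 at 0.272 and Lgr6 at 0.476 CPM. The 2 of the female gave 1293, 643.7 and 436.5 CPM, but only 1 of these 2 cells had a count of each gene.

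Another 64 Wnt pathway genes were listed by role, and 48 were tested. In airway SMC-like against vascular SMC-like cells 2 of 48 passed (4.17%, beside 1.78% of all genes), both from the list of target and feedback genes: Tnfrsf19, a receptor gene induced by Wnt signalling, was higher (698.8 against 242.5 CPM, log2 fold change 1.49 ± 0.28, adjusted p = 0.0119), and Nkd2, a feedback inhibitor that binds Dishevelled, was lower (0.591 against 51.3 CPM, -6.46 ± 1.27, adjusted p = 0.0158). Without the block Tnfrsf19 did not pass (0.0962). Without any 1 mouse neither passed, except Nkd2 without male 2 (0.0158). The median log2 fold change of the 48 was -0.07, against -0.25 for all genes tested.

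Between pericyte-like and vascular SMC-like cells 6 of 48 passed (12.5%, beside 3.07% of all genes), 4 higher and 2 lower. Lef1, a transcription factor that binds beta-catenin, had 98.3, 191.9 and 108.9 CPM in pericyte-like cells and at most 9.79 CPM in any other sample (mean 133.1 against 1.41 CPM, adjusted p = 0.00485). Wnt5b, a ligand related to Wnt5a, had a mean of 66.4 against 0.445 CPM (adjusted p = 0.0256), Tnfrsf19 643.4 against 242.5 (0.0101) and Ptk7, a co-receptor without kinase activity, 177.1 against 14.3 (0.0396). The vascular mean of Ptk7 came almost wholly from the female, at 42.4 CPM against 0.166 and 0.292 in the males. Lower were the Frizzled receptor gene Fzd2 (0.363 against 34.1 CPM, adjusted p = 0.0357) and Nkd1, a feedback inhibitor like Nkd2 (76 against 255.3 CPM, 0.0356). Without the block Lef1 and Fzd2 were called, and Wnt5b (0.0812), Tnfrsf19 (0.0982), Ptk7 (0.242) and Nkd1 (0.252) were not. Fzd2 lost its call with a single clustering (0.153) and with another split of the genes (0.0556). Wnt5b lost it with that split (0.0758), and at Leiden resolution 2 Wnt5b (0.093), Tnfrsf19 (0.0848), Ptk7 (0.102) and Nkd1 (0.0552) did not pass. With 1 mouse left out, only Nkd1 (0.0464) and Ptk7 (0.00117) were called, both without the female. The median log2 fold change of the 48 was 0.01, against -0.36 for all genes.

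No listed gene outside the members passed in alveolar myofibroblast-like against airway SMC-like cells, by edgeR at adjusted p under 0.05. At an unadjusted p under 0.05 there were 8 of 48, beside 1834 of all 15988 genes. DESeq2 called 6 of 48, beside 6.71% of all genes. In alveolar myofibroblast-like against alveolar fibroblast-like cells 1 of 48 passed (2.08%, beside 2.17% of all genes), the R-spondin gene Rspo4, with 12.6, 6.94 and 19 CPM in the fibroblast-like cells against at most 0.1 CPM in the myofibroblast-like cells (adjusted p = 0.0269; 0.0684 without the block, 0.384, 0.124 and 0.342 without male 1, male 2 and the female; 0.0688 at Leiden resolution 2 and 0.0637 with thinned cells). In the test for any difference 9 of 48 passed (18.8%), beside 12.6% of all genes. The lowest adjusted p were those of Lef1 (4.57e-05), Nkd1 (0.00033), Rspo4 (0.000895), Notum (0.00111), Nkd2 (0.00364) and Tnfrsf19 (0.00406). Lef1 did not pass at Leiden resolution 0.5 (0.339) or with the stricter cell filter (0.273), alternatives that left no pericyte-like class to test. At resolution 2, which left no airway SMC-like class large enough to test, Nkd2 (0.0919) and Tnfrsf19 (0.112) did not pass. Lef1 and Nkd1 passed with any 1 mouse left out. Without male 1 Rspo4 (0.105), Notum (0.0567), Nkd2 (0.159) and Tnfrsf19 (0.0817) did not, without male 2 Tnfrsf19 (0.124), and without the female Rspo4 (0.123), Nkd2 (0.0945) and Tnfrsf19 (0.102). Notum, which removes the lipid from Wnt ligands, had 258.8, 26.1 and 74.4 CPM in adventitial fibroblast-like cells. In alveolar myofibroblast-like cells it had 1.82, 72.5 and 11.2 CPM, above the adventitial value in male 2. Wls, which carries Wnt ligands to the cell surface, had class means from 214.2 to 354.2 CPM and was called in none of the comparisons, and neither was Porcn, which adds the lipid.

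**Figure D4:**
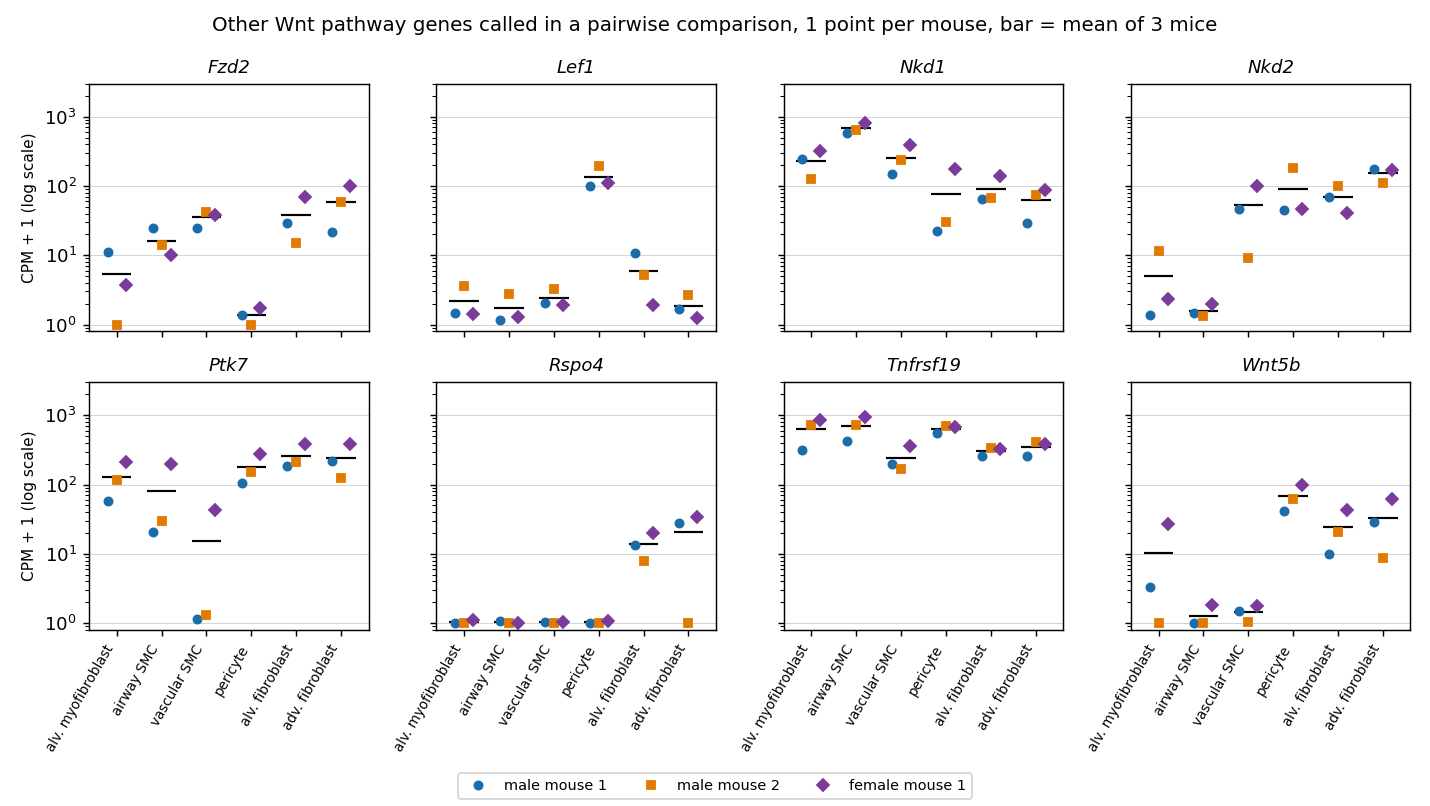
Level (CPM + 1, log scale) of the 8 other listed Wnt genes called in a comparison of 2 classes, with 1 point per mouse and a bar for the mean. Lef1 stands at 98.3 to 191.9 CPM in pericyte-like cells, and Rspo4 is above 1 CPM in alveolar fibroblast-like cells of all 3 mice and adventitial fibroblast-like cells of 2.

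Genes whose level followed a member most closely were ranked by Pearson's r of log2(CPM + 1) over the 18 sums of class and mouse, among 15886 genes; the sums share mice, classes and depth, and r is a description. Nearest to Lgr6 were Kit (0.962), Tcap (0.955) and Fhl2 (0.943), and nearest to Lgr5 were Lum (0.883), Prnp (0.869) and Cyp2e1 (0.864). Wnt2 was followed by Bpifa2 (0.991), Mir7007 (0.989) and Serpina3i (0.988), Wnt4 by Tmem200a (0.931), Gm9767 (0.857) and Edn3 (0.846), and Wnt11 by Enpp2 (0.859), Pappa2 (0.816) and Metrnl (0.813). The neighbours of Wnt5a were Gata5os (0.821), 6330403K07Rik (0.818) and Col12a1 (0.816). For Rspo3 they were Ccdc69 (0.930), Mtmr7 (0.881) and Bdh1 (0.878), for Rspo1 Gm43980 (0.845), Vdac3 (0.779) and Gm4017 (0.730), and for Lgr4 Gm4876 (0.815), Ubap2 (0.805) and Trp53bp2 (0.804). Axin2 was nearest to the gene that overlaps it, Gm11670 (0.964), then to Rabac1 (0.891) and Gaa (0.877). Among the members themselves the closest pair was Lgr4 and Lgr6 (0.703) and the most opposed Wnt4 and Lgr6 (-0.747).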

How the data were processed

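Single cells were sequenced by Smart-Seq2. The deposited table holds raw whole-number counts per Ensembl gene and cell, not normalized. Per the submitters' processing notes, featureCounts, Subread, Bowtie2, Bowtie and bcl2fastq were used, with the builds mm10 and GRCm38. Their versions and the strand setting are not given in the sources used here. Symbols and exon lengths are from GENCODE M21. The members and gene lists were chosen with earlier results of these data known.

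No cell was left out and no doublet caller was run. Genes were split at random into 2 parts (seed 1) with all listed Wnt genes in 1 part. Cells were clustered (1000 variable genes chosen within mice, 30 principal components, 15 neighbours, Leiden resolution 1) on each part, and genes of the other part were tested, so no listed Wnt gene helped to form the classes it was tested between. Of 1082 cells named in both clusterings, 1043 (96.4%) had the same name. A name needed a mean scaled marker score of at least 0.2, a margin of 0.15 over the next class, at least 3 markers detected in 25% of cells, and no more markers of another class than of its own among the top 10 genes; this rule was set after the clusters were seen.

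Counts were summed per class and mouse for classes with at least 10 cells in each mouse, and tested with edgeR 4.0.16 (TMM, filterByExpr, quasi-likelihood, mouse as block, two-sided, Benjamini-Hochberg, threshold 0.05); SE is the log2 fold change divided by the root of F. The block comes from the labels: every class holds cells of the same 3 mice. The mice are separate animals. Fits were tested on simulated data with 1 fixed spread for all genes, for airway SMC-like against vascular SMC-like cells. Changes of 1, 2 and 3 log2 units were called in 0, 15.4 and 55.6% of the changed genes, with 0 false calls. Changes of these sizes and smaller can therefore be missed, and so can larger ones in genes of wider spread. In the data, the members' SE in this comparison ran from 0.87 (Axin2) to 3.32 (Rspo1) log2 units. Wnt11, at a log2 fold change of 4.11 ± 1.83 (SE), was not called. Alternatives were DESeq2 1.42.0, RLE size factors, no filter, no block, each mouse left out, Leiden resolution 0.5 and 2, 1 clustering on 2000 genes outside the Wnt lists, another split, a stricter cell filter, and cells thinned to 50000 counts; for levels, library totals. Named are all members, up to 6 other called Wnt genes per comparison by adjusted p, and the 3 most similar genes per member; the cells outside the classes, the clusters within a class and the gene pairs read in single cells were picked after their values were seen. Intervals cover counting error only, and reads without molecular identifiers are not independent molecules. One marker gene, and the list that holds it, is not reported here.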

Additional observations from a re-analysis of the deposited data

Results flagged for a closer look

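Among member and class pairs with more than 3 counts in at least 1 of both classes in every mouse, the males differed between classes in one direction and the female in the other for 2 members. With 1 female this difference was not tested. On the log2 scale of CPM + 1, Axin2 in airway SMC-like against vascular SMC-like cells was -0.06 in male mouse 1, -0.44 in male mouse 2 and 2.995 in female mouse 1. Lgr4 in alveolar myofibroblast-like against airway SMC-like cells was -0.33, -0.32 and 1.78 in the same order. The female Lgr4 values rest on 3 of 41 myofibroblast-like and 3 of 23 airway SMC-like cells with a count, and 5 cells gave 97.4% of the myofibroblast-like counts. For Axin2, 12 of 23 female airway SMC-like cells had a count, and 5 cells gave 85.2% of the counts of that class over the mice. Wnt2 had such signs too between pericyte-like and vascular SMC-like cells (-0.03, -0.27 and 0.33), at no more than 3 counts per class in at least 1 mouse.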

How the results depend on the processing

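In the order used here, the comparisons are airway SMC-like against vascular SMC-like, pericyte-like against vascular SMC-like, alveolar myofibroblast-like against airway SMC-like, and alveolar myofibroblast-like against alveolar fibroblast-like cells, then any difference. By edgeR with 1 mouse left out, the share of tested genes called ranged from 0.318 to 0.707%, 0.3 to 1.55%, 0.0122 to 0.255%, 0.514 to 0.856% and 3.58 to 5.44%, and the members called from 0 to 1, 0 to 1, 0 to 0, 1 to 2 and 3 to 5. In the third comparison, where none was called, 2 to 4 had an unadjusted p under 0.05, beside 1442 to 1502 of 15662 to 16825 genes. DESeq2 called 5.92, 10.9, 6.71, 7.36 and 23.4% of the genes, 5 members in the second comparison, 2 in the third comparison and 5 in the fourth comparison. The members it added were Wnt4, Wnt11 and Rspo3, and Axin2 in the fifth. Without the filter on low counts the shares were 0.888, 1.44, 0.471, 1.05 and 6.76%, with more genes tested and the same members called. Without the replicate block 1.13, 1.95 and 0.482% of genes were called in the first 3 comparisons, and 1 member in the first. Lgr5 there and the other Wnt genes given above lost their calls, and no other member did. With thinned cells the second and the third comparison called 5.3 and 1.66% of the genes. At Leiden resolution 0.5 the first called 1 member and the third 1.55% of the genes. The stricter cell filter left 0 members in the third, by edgeR, with 3 at an unadjusted p under 0.05, beside 2042 of 15950 genes. In the fifth, resolution 0.5 and the stricter filter lost Wnt4, resolution 2 and a single clustering lost Wnt11, and thinning lost Rspo3. The causes were not tested. No direction of a called member changed under any alternative. RLE size factors moved the median log2 fold change of all genes from -0.25 to -0.09 in the first comparison and from -0.36 to -0.15 in the second, with the same members called. Resolution 0.5 and the stricter filter left no pericyte-like class and resolution 2 no airway SMC-like class large enough to test, so these were not run. Depth limits the rare genes: Rspo1 rests on 23 cells.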
